A study of Rattus norvegicus with 12 samples.

Results

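Oxidative phosphorylation makes most of the ATP of a neuron. Electrons enter the chain at complex I (NADH dehydrogenase) or complex II (succinate dehydrogenase), pass through complex III and complex IV (cytochrome c oxidase), and the proton gradient they build drives complex V (ATP synthase). Complexes I, III, IV and V are each built from subunits of the mitochondrial genome and of the nuclear genome, whereas complex II is wholly nuclear.

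The genes described here were all protein-coding rows whose symbol starts with Mt- or names a nuclear subunit or assembly factor of these complexes (the Nduf, Sdh, Uqcr, Cox4 to Cox8 and Atp5 families). They numbered 110 of the 32623 rows in the count tables, 13 mitochondrial-encoded and 97 nuclear. The Ndufs6 row was left out because the annotation calls it a processed pseudogene. Cox6b1, Ndufv3 and Uqcrb each had 2 rows of the same symbol, written here as Cox6b1_1 and Cox6b1_2 and so on. How their reads were divided is uncertain.

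RNA was measured in 12 libraries of L5 spinal dorsal horn from 8-week-old OT-hM3Dq-mCherry transgenic rats, 3 each from laminae III–VI after CNO, laminae III–VI after Saline, laminae I–II after CNO and laminae I–II after Saline. Every rat, Saline controls included, was a heterozygous carrier of the CNO-activated receptor hM3Dq fused to mCherry under the oxytocin promoter, which is active in oxytocin neurons of the hypothalamus. The layers were cut by laser from frozen sections 2 h after CNO, given s.c. at 1 mg kg−1, or Saline. No CNO-treated rat without the receptor was analysed here.

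Library totals were 5245952 to 7889953 counts. The layers carried their own markers: all 4 tested superficial markers (Tac1, Nmu, Nmur2 and Grp) were lower in laminae III–VI, and the deep markers Slc6a5, Pvalb, Scn4b and Esrrg rose there, 4 of 4. Levels are given in CPM (normalized counts scaled to a common library size). Calca, also listed as superficial, was too low to test, with means of 0.70 CPM in laminae III–VI and 0.31 CPM in laminae I–II. The I–II libraries stood apart in genes of peripheral nerve, since the summed level of 5 Schwann-cell markers was 37.8 to 112 CPM with CNO and 236 to 560 CPM with Saline.

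Promoters of the nuclear genes are shown first, because 77 of these genes moved together between the layers and the nuclear respiratory factors NRF1 and GABPA are known to bind promoters of this family. RefSeq windows on the GRCr8 build were matched for 83 of the 97 nuclear rows, 81 distinct windows in all. The 250 bases before each start were searched on both strands for GCATGCG (the core of the NRF1 motif), CCGGAAG (GABPA), AAGATGG (YY1) and AAGGTCA (the half-site of the estrogen-related receptors). Matches of different motifs did not overlap in the windows shown. Each sequence reads 5′ to 3′ on the strand of its gene and has motif matches in capitals. Shown are the genes with the smallest p for the layer difference in complexes III, I, II, IV and V, followed by Ndufa1, which did not pass that test.
Uqcrh (chr5:134790883-134791132, minus strand): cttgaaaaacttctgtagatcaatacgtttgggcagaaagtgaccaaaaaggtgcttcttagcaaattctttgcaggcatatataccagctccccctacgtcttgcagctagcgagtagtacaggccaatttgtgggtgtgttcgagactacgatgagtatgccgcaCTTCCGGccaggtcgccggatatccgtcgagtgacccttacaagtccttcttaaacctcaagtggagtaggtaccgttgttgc
Ndufs1 (chr9:72073606-72073855, minus strand): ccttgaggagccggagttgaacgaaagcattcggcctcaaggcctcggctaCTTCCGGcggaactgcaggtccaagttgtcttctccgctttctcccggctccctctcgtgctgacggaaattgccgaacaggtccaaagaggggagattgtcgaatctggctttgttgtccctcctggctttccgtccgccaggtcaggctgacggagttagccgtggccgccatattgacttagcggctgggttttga
Sdha (chr1:30764303-30764552, plus strand): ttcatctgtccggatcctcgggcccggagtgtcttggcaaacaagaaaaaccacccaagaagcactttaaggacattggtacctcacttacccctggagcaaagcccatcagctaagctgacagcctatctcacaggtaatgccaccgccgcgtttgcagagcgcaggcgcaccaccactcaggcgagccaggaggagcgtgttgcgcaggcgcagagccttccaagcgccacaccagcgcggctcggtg
Cox4i1 (chr19:65630133-65630382, plus strand): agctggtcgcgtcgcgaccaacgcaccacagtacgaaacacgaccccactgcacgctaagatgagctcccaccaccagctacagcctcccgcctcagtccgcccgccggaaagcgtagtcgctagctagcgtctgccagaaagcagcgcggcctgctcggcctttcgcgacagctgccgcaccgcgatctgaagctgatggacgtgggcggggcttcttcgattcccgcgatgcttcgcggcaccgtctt
Atp5b (chr7:1099808-1100057, plus strand): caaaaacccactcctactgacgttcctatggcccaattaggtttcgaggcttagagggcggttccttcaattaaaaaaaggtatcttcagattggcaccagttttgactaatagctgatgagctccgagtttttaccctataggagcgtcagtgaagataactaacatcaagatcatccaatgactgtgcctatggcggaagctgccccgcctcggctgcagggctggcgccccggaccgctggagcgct
Ndufa1 (chrX:121293556-121293805, minus strand): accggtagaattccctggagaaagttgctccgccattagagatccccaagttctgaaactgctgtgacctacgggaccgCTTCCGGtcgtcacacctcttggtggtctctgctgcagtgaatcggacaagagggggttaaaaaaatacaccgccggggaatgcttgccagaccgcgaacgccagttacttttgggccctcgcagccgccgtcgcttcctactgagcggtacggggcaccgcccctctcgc
The Uqcrh, Ndufs1 and Ndufa1 windows each held 1 GABPA match, and the Sdha, Cox4i1 and Atp5b windows held none of the motifs searched. Among the 67 distinct promoters of nuclear genes that were higher in laminae III–VI (both Cox6b1 rows share one), 26.9% held the GABPA letters and 17.9% the NRF1 letters, against 7.74% and 3.14% of all 27457 windows in the table. All windows include those of genes not tested here, and the share over tested genes alone was not computed. The comparison therefore cannot separate these genes from other expressed genes. The YY1 letters were in 5.97% of the 67 windows and the estrogen-related receptor letters in 10.4%, against 4.63% and 3.77% of all windows. Of the 6 matched promoters of genes that did not pass, 1 held the GABPA letters and none held the others. These 7-letter forms replaced longer ones after the result of the longer ones had been seen. With NRF1 as GCGC and TGCGC 1 base apart, the share was 16.4% of the 67 windows and 4.17% of all windows. Of the 6 windows of genes that did not pass, 1 held this form (16.7%), a share like that of the 67. With CG required after the YY1 letters the share was 1.49% of the 67 windows and 0.736% of all. With a T required 2 bases before the estrogen-related receptor letters it was 1.49% of the 67 and 1.0% of all. Each of these forms was in 1 of the 67 windows, and none of the 6 held either. A match is a run of letters and not a measured binding site.

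The mitochondrial-encoded genes took 6.63%, 7.19% and 6.17% of all counts in the 3 III–VI CNO libraries and 6.33%, 6.41% and 6.39% in the III–VI Saline libraries. In laminae I–II they took 5.65%, 5.56% and 5.21% with CNO and 5.08%, 6.36% and 5.73% with Saline. The deep libraries were mostly higher, with 1 I–II Saline library reaching the range of the deep layer, and the 3 I–II Saline libraries spread over the range of the I–II CNO libraries. The nuclear genes took 1.13% to 1.23% of counts in laminae III–VI and 0.846% to 0.952% in laminae I–II, with no overlap. Within each layer this share was lower with CNO, without overlap. It was 1.127% to 1.171% with CNO and 1.183% to 1.231% with Saline in laminae III–VI. In laminae I–II it was 0.8464% to 0.9083% with CNO and 0.9096% to 0.9516% with Saline. Scaled for composition (TMM, below), the sums overlapped, at 12060 to 12650 CPM with CNO and 12390 to 13050 CPM with Saline in laminae III–VI. In laminae I–II they were 7903 to 8664 CPM and 8531 to 8927 CPM.

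Libraries of 1 treatment and replicate number are taken here as 1 rat, which the sources used here do not state. Within each such rat, the mitochondrial-encoded share in laminae III–VI was 1.01 to 1.30 times that in laminae I–II, and the nuclear share was 1.27 to 1.33 times. The ratio of mitochondrial to nuclear counts was therefore lower in laminae III–VI in 6 of 6 rats, at 0.796 to 0.972 times its value in laminae I–II. These sums over chosen genes were not tested. By complex, the mitochondrial subunits of complex III gave 4.76 to 5.56 counts per nuclear count in laminae III–VI and 6.11 to 6.65 in laminae I–II, with no overlap. The layers overlapped for complex I (5.24 to 6.49 in laminae III–VI and 6.13 to 7.19 in laminae I–II), complex IV (11.88 to 15.03 and 12.27 to 15.15 in the same layers) and complex V (3.20 to 4.03 and 3.16 to 4.33).

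**Figure D1:**
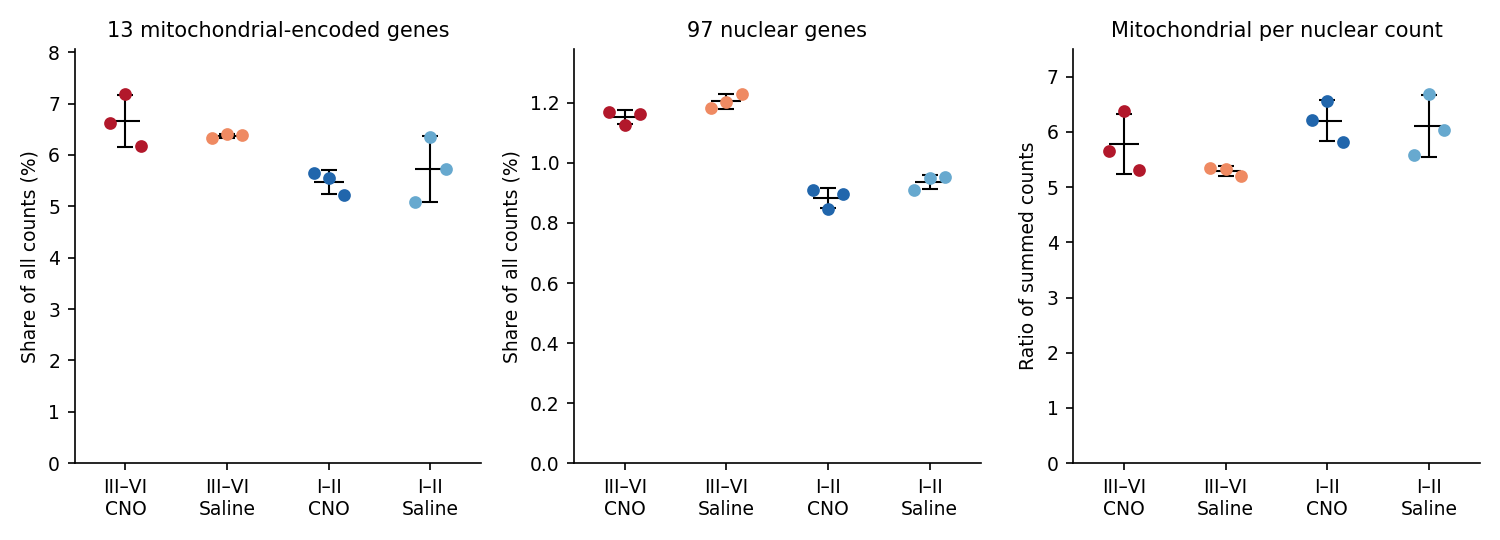
Share of all counts (percent) taken by the 13 mitochondrial-encoded genes (left) and the 97 nuclear genes (middle), and the ratio of the sums (right), for each library. Points are libraries, bars the mean ± SD (n = 3). The nuclear share separated the layers without overlap, while the mitochondrial share of 1 I–II Saline library (6.36%) lay among the III–VI libraries.

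The first comparison asked how the genes differed between the deep and superficial layers, with the rat as a block. All 13 mitochondrial-encoded genes and 77 of the 85 nuclear genes tested were higher in laminae III–VI, none was lower, and the medians were 0.40 and 0.50 on the log2 scale (edgeR quasi-likelihood test, adjusted p under 0.05). Across all 13745 genes tested, 30.8% were higher and 30.8% were lower, and the median was -0.02. The differences were moderate: 28 nuclear genes passed 1.5-fold, 1 passed 2-fold (Uqcrh), and no mitochondrial-encoded gene passed 1.5-fold. In 6 of 6 rats, all 13 mitochondrial-encoded genes and 76 nuclear genes were higher in laminae III–VI.

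Here and below, levels are CPM after TMM scaling, which corrects for differences in composition between libraries. They are not divided by gene length. With library totals in place of TMM factors, the median of all genes moved to -0.19, and 2544 genes were higher and 6500 lower, against 4228 and 4233 with TMM. On that scale 12 mitochondrial-encoded and 73 nuclear genes were still higher in laminae III–VI, and Mt-cyb did not pass (log2 difference 0.05, edgeR adjusted p = 0.217).

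Complex III included the gene with the largest difference, Uqcrh, which encodes its hinge protein (ENSRNOG00000012550, chromosome 5, 134919044 to 134927235, rn6). Uqcrh was at 216, 230 and 238 CPM in the III–VI CNO libraries and 188, 223 and 224 CPM in the III–VI Saline libraries, against 108, 101 and 111 CPM in the I–II CNO libraries and 100, 115 and 124 CPM in the I–II Saline libraries. Every deep library exceeded every superficial one. The log2 difference was 1.00 (SE 0.04, edgeR adjusted p = 2.12e-15). All 8 nuclear genes of complex III that were tested were higher, among them Uqcrfs1, the Rieske iron-sulfur protein, with a log2 difference of 0.63. Mt-cyb, the cytochrome b that forms its mitochondrial core, had the smallest difference among the 13 mitochondrial-encoded genes, 0.22 (SE 0.04, edgeR adjusted p = 8.67e-06).

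In complex I, 31 of 34 nuclear subunits and all 7 mitochondrial subunits were higher in laminae III–VI. Ndufs1, its largest iron-sulfur subunit (ENSRNOG00000011849, chromosome 9, 69919867 to 69953182, rn6), averaged 317 ± 16.0 CPM in laminae III–VI and 184 ± 13.9 CPM in laminae I–II (SD, n = 6 each; log2 difference 0.78, SE 0.03, edgeR adjusted p = 4.54e-15). Ndufv2, a flavoprotein-fraction subunit, and the accessory subunits Ndufb9 and Ndufb7 differed by 0.75, 0.80 and 0.88 on the log2 scale. Ndufb9 had the highest mean CPM of the nuclear complex I genes, 400.1 ± 29.2 CPM in laminae III–VI and 230.5 ± 25.0 CPM in laminae I–II.

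The complex I subunits that did not pass were Ndufa1, Ndufa7 and Ndufv3_2. Ndufa1, an accessory subunit (ENSRNOG00000052226, chromosome X, 123803103 to 123806777, rn6), was at 65.4, 60.8 and 67.3 CPM in the III–VI CNO libraries and 62.2, 50.2 and 65.0 CPM in the III–VI Saline libraries, against 69.4, 54.2 and 56.8 CPM in the I–II CNO libraries and 63.3, 53.8 and 51.2 CPM in the I–II Saline libraries. The 4 groups overlapped (log2 difference 0.09, edgeR adjusted p = 0.182). For Ndufa7 and Ndufv3_2 the log2 differences were 0.15 and 0.08. Of 7 assembly factors of complex I, 5 were higher in laminae III–VI, led by Ndufaf4 (log2 difference 0.76), and Ndufaf3 and Ndufaf6 did not pass (0.12 each). With library totals in place of TMM factors, the values of Ndufa1, Ndufa7, Ndufv3_2, Ndufaf3 and Ndufaf6 were below 0 and still did not pass.

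All 4 subunits of complex II were higher in laminae III–VI. Sdha, the flavoprotein that oxidises succinate, averaged 584 ± 25.2 CPM in laminae III–VI and 379 ± 17.1 CPM in laminae I–II (log2 difference 0.62, SE 0.03, edgeR adjusted p = 3.96e-14). The iron-sulfur subunit Sdhb and the membrane anchors Sdhc and Sdhd differed by 0.47, 0.45 and 0.52 on the log2 scale.

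In complex IV, 13 of 15 nuclear genes tested and all 3 mitochondrial subunits were higher in laminae III–VI. Cox5a, a nuclear accessory subunit (ENSRNOG00000018816, chromosome 8, 62298358 to 62309765, rn6), was at 67.8, 59.2 and 59.3 CPM in the III–VI CNO libraries and 58.0, 67.5 and 72.2 CPM in the III–VI Saline libraries, against 29.6, 29.2 and 32.3 CPM in the I–II CNO libraries and 32.5, 38.3 and 34.9 CPM in the I–II Saline libraries. The layers did not overlap (log2 difference 0.96, SE 0.06, edgeR adjusted p = 1.65e-12). Cox4i1, the common form of subunit IV, averaged 424 ± 18.4 CPM in laminae III–VI and 260.5 ± 18.0 CPM in laminae I–II (log2 difference 0.70, SE 0.04, edgeR adjusted p = 4.23e-14).

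The genes of complex IV that did not pass were minor isoforms. Cox4i2, the form of subunit IV known from lung and from low oxygen, averaged 2.66 ± 1.00 CPM in laminae III–VI and 2.98 ± 0.910 CPM in laminae I–II (log2 difference -0.16, edgeR adjusted p = 0.555). Ndufa4l2, a paralog of Ndufa4 induced by low oxygen, averaged 1.26 ± 0.225 CPM and 1.40 ± 0.784 CPM in the same layers (edgeR adjusted p = 0.719). The common partners Cox6a1, Cox6b1_1, Cox7a2, Cox7a2l, Cox8a and Ndufa4 were all higher in laminae III–VI, with log2 differences of 0.29 to 0.67. The heart and muscle isoforms Cox6a2, Cox7a1 and Cox8b and the testis isoform Cox6b2 were too low to test, with 86, 11, 3 and 15 counts over the 12 libraries.

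In complex V, all 15 nuclear subunits and both mitochondrial subunits were higher in laminae III–VI. Atp5b, the catalytic beta subunit, averaged 1051 ± 27.0 CPM in laminae III–VI and 708 ± 31.8 CPM in laminae I–II (log2 difference 0.57, SE 0.03, edgeR adjusted p = 3.04e-13). The alpha subunit Atp5a1, with the highest mean CPM of the nuclear complex V genes, averaged 1114 ± 62.5 CPM and 777 ± 35.9 CPM in the same layers. Of 2 genes that carry the family's symbol without encoding a core subunit, Atp5sl was higher in laminae III–VI (log2 difference 0.44) and Atp5s did not pass (0.20, edgeR adjusted p = 0.0939). Atp5s passed without CNO replicate 2 (0.29, edgeR adjusted p = 0.0243) and in the Saline rats alone, a setting added after seeing the data (0.36, edgeR adjusted p = 0.0467).

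**Figure D2:**
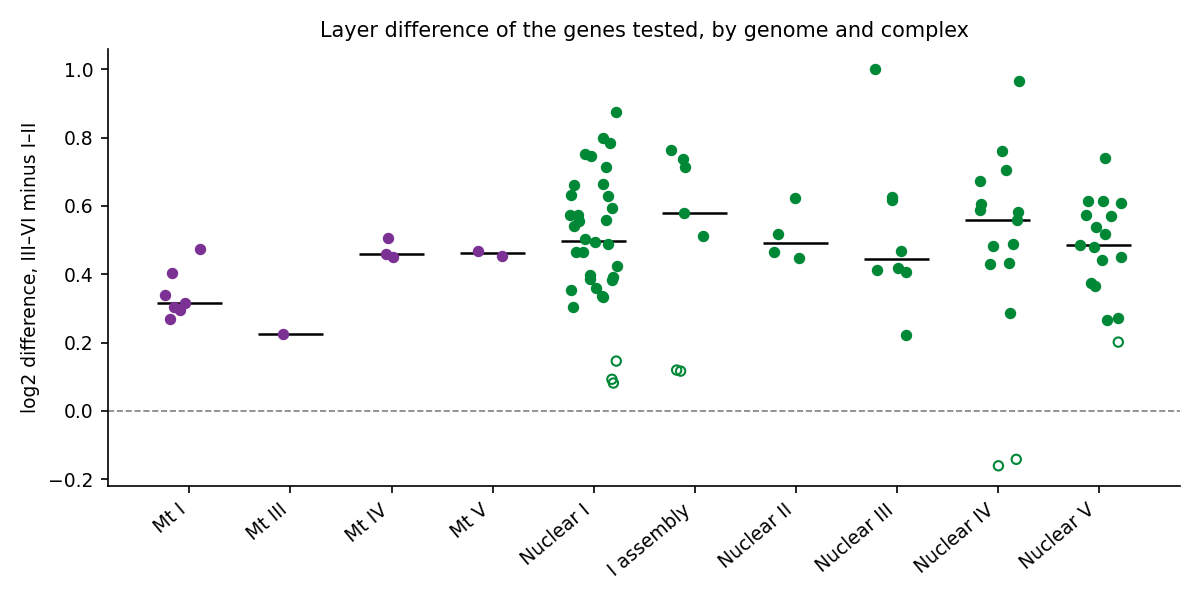
Log2 difference between laminae III–VI and laminae I–II (vertical axis, III–VI minus I–II) for each gene tested, by genome (purple mitochondrial, green nuclear) and complex (horizontal axis; nuclear V includes Atp5s and Atp5sl). Filled points had an edgeR adjusted p under 0.05, open points did not, and bars are medians. All filled points lie above 0, and Uqcrh and Cox5a are highest at 1.00 and 0.96.

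Counts of the mitochondrial-encoded genes were also divided by their annotated lengths. These values depend on how reads were assigned to genes and need not follow the amounts of the transcripts. Per kilobase, Mt-atp6, the proton channel subunit of complex V, was highest at 16980 ± 869 CPM in laminae III–VI and 12480 ± 1674 CPM in laminae I–II (SD, n = 6 each), and Mt-cox3 was second at 11760 ± 713 CPM and 8306 ± 834 CPM. Mt-nd3 was lowest at 1035 ± 109 CPM per kilobase in laminae III–VI and 825 ± 163 CPM in laminae I–II. The neighbours Mt-co1 and Mt-co2 were within their spread of each other, at 7783 ± 666 CPM and 7653 ± 530 CPM per kilobase in laminae III–VI. The complex I genes Mt-nd1, Mt-nd4 and Mt-nd2 were at 5086 ± 403, 5092 ± 347 and 4617 ± 270 CPM per kilobase in laminae III–VI. The complex I genes Mt-nd5, Mt-nd4l and Mt-nd6 were lower, at 2781 ± 165, 2653 ± 200 and 1971 ± 99.7 CPM per kilobase in the same layer. Mt-atp8 and Mt-atp6 overlap by 43 bases, Mt-nd4l and Mt-nd4 by 7, and Mt-nd5 and the opposite-strand Mt-nd6 by 23. Reads in those bases, and reads shared with copies of mitochondrial DNA in the nuclear genome, could be counted in either gene. Overlapping neighbours differed widely per kilobase. Mt-atp8 was at 9750 ± 1094 CPM in laminae III–VI, below Mt-atp6, and Mt-nd4l was below Mt-nd4. The part of read assignment in the ranking was not tested.

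**Figure D3:**
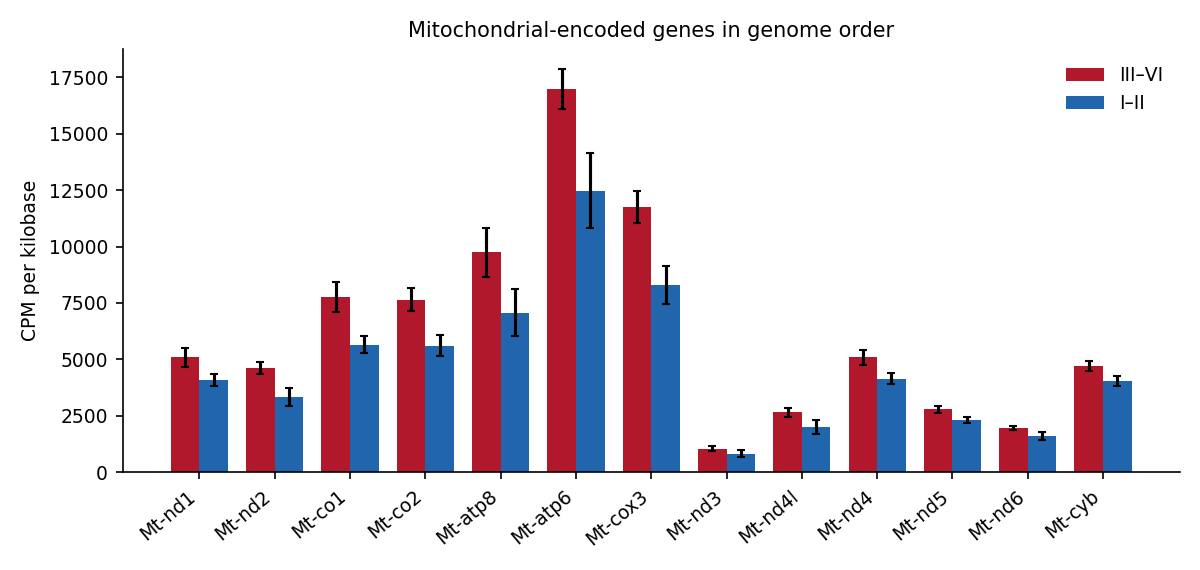
Level of the 13 mitochondrial-encoded genes in the order they lie on the mitochondrial genome (horizontal axis), in CPM per kilobase (vertical axis); bars are means and error bars SD over the 6 libraries of each layer. Every gene is higher in laminae III–VI, and Mt-atp6 is the highest and Mt-nd3 the lowest in both layers.

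The layer difference of the mitochondrial-encoded genes was largest for Mt-cox3 (log2 difference 0.51, SE 0.04, edgeR adjusted p = 8.57e-10), followed by Mt-nd2, Mt-atp8, Mt-co1, Mt-atp6 and Mt-co2 at 0.45 to 0.47. Mt-nd4l, Mt-nd3, Mt-nd1, Mt-nd4, Mt-nd6 and Mt-nd5 followed at 0.27 to 0.40. Mt-co1, the catalytic subunit of complex IV, was at 12650, 13800 and 11750 CPM in the III–VI CNO libraries and 11130, 11160 and 11670 CPM in the III–VI Saline libraries, against 9192, 8792 and 8527 CPM in the I–II CNO libraries and 7691, 9060 and 9126 CPM in the I–II Saline libraries. The layers did not overlap. Across all features 18.6% were higher without overlap, and 10 of the 13 mitochondrial-encoded and 67 of the 85 nuclear genes were.

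**Figure D4:**
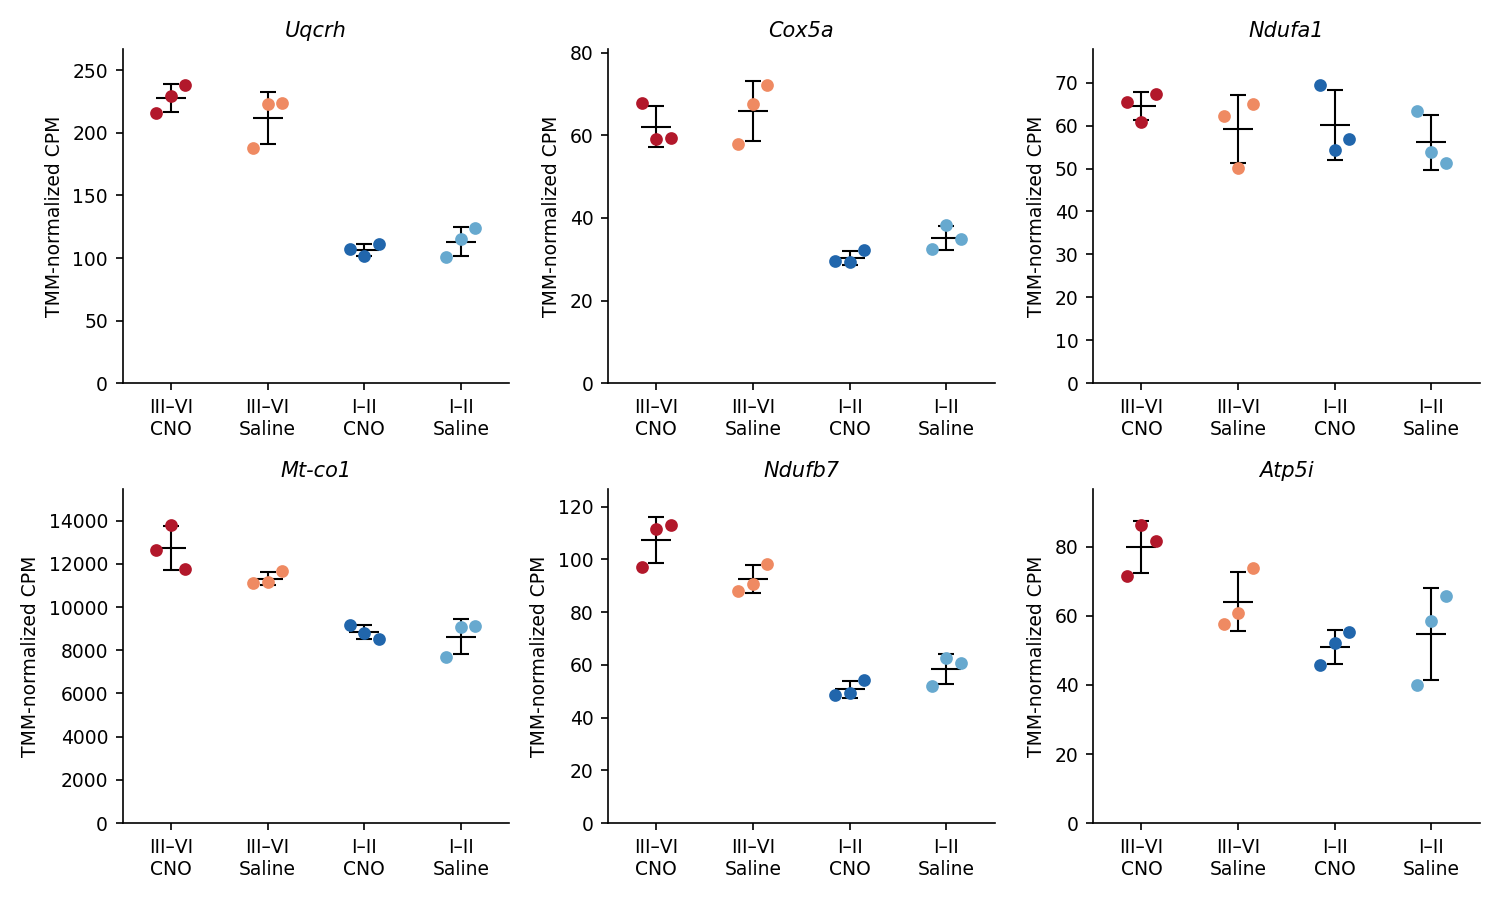
Level (TMM-normalized CPM) of 6 genes in each library, with mean ± SD (n = 3) per group. Uqcrh, Cox5a, Mt-co1 and Ndufb7 separate the layers without overlap, Ndufa1 overlaps in all 4 groups, and Atp5i overlaps between the layers.

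Genes that work beside the respiratory chain were mostly higher in laminae III–VI too. Of 27 genes listed for the tricarboxylic acid cycle, pyruvate dehydrogenase and steps beside them, 23 were higher and 1 (Suclg2) was lower, with a median of 0.61. The genes beside them included those named next and the pyruvate dehydrogenase kinases. Of the kinases, Pdk2 and Pdk3 were higher (0.48 and 0.69), and Pdk1 and Pdk4 did not pass. Mdh1, cytosolic malate dehydrogenase, averaged 767 ± 35.4 CPM in laminae III–VI and 399 ± 26.1 CPM in laminae I–II (log2 difference 0.94, edgeR adjusted p = 5.82e-17), and the aspartate aminotransferases Got1 and Got2 differed by 0.84 and 0.79. Of 17 mitochondrial carriers and creatine kinases, 13 were higher and 1 was lower: the ADP/ATP carrier Slc25a4 and the creatine kinase Ckmt1 differed by 0.63 and 0.88, and the uncoupling protein Ucp2 was lower (log2 difference -1.50, edgeR adjusted p = 5.94e-12). Of 10 antioxidant genes, not all of them mitochondrial, 9 were higher, with Prdx5 at 1.17 and the manganese superoxide dismutase Sod2 at 1.14.

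Genes that make the mitochondrial-encoded proteins were higher in part, 47 of 73 of the mitochondrial ribosome (median 0.29) and 19 of 31 of mitochondrial DNA expression (median 0.31), with Mrpl23 lower. Lrpprc, which stabilises mitochondrial mRNA, differed by 0.61 (edgeR adjusted p = 7.5e-13). Tfam, which packages mitochondrial DNA and starts its transcription, averaged 29.3 ± 2.67 CPM in laminae III–VI and 30.3 ± 1.96 CPM in laminae I–II, and Polrmt, the mitochondrial RNA polymerase, 16.7 ± 2.37 CPM and 15.3 ± 1.49 CPM in the same layers (edgeR adjusted p = 0.567 and 0.253). Of 45 electron carriers and assembly factors 26 were higher and 1 (Coq4) was lower, with Cyc1, the cytochrome c1 of complex III, at 0.81 and Atpaf1, an ATP synthase assembly factor, at 1.06.

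Of 22 glycolysis and lactate genes, 18 were higher and 3 lower. Ldhb, the lactate dehydrogenase subunit that favours pyruvate production, averaged 696 ± 27.2 CPM in laminae III–VI and 378 ± 22.9 CPM in laminae I–II (log2 difference 0.88, edgeR adjusted p = 2.72e-16). Ldha, the subunit that favours lactate production, averaged 50.3 ± 3.93 CPM in laminae III–VI and 88.0 ± 10.3 CPM in laminae I–II (log2 difference -0.80, edgeR adjusted p = 3.81e-12). Hk2, a hexokinase, and Slc16a7, a monocarboxylate transporter, were lower as well (-0.45 and -0.92).

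The known regulators of mitochondrial biogenesis also went both ways, with 7 of 15 higher, 4 lower and a median of 0.03. Ppargc1a, the coactivator PGC-1α, averaged 95.6 ± 5.07 CPM in laminae III–VI and 49.9 ± 3.22 CPM in laminae I–II (log2 difference 0.94, edgeR adjusted p = 4.42e-14). The estrogen-related receptors Esrra and Esrrg differed by 0.92 and 2.47, and Esrrg is also one of the deep-layer markers used above. Gabpa was lower, at 32.6 ± 2.33 CPM in laminae III–VI and 44.0 ± 3.39 CPM in laminae I–II (log2 difference -0.43, edgeR adjusted p = 3.06e-06), and Nrf1 did not pass (-0.11, edgeR adjusted p = 0.373). Also lower were Yy1, whose letters were searched above (-0.26, edgeR adjusted p = 0.00331), Sirt1 (-0.30) and Prkaa2 (-0.28).

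Cell-type markers differed between the layers as well. Of 8 neuronal markers 6 rose in laminae III–VI and Syt1 fell. The summed level of the 8 was 18630 to 27680 CPM in laminae III–VI and 8092 to 9330 CPM in laminae I–II. The neurofilaments Nefl, Nefm and Nefh made the larger part of the sum in laminae III–VI but not in laminae I–II. All 6 oligodendrocyte markers were higher (16110 to 18100 CPM in laminae III–VI and 13570 to 15140 CPM in laminae I–II). Lower in laminae III–VI were 4 of 6 astrocyte markers (3019 to 3379 CPM in laminae III–VI and 3696 to 4699 CPM in laminae I–II), 6 of 6 microglial markers (100.4 to 161 CPM in laminae III–VI and 158 to 211 CPM in laminae I–II) and 5 of 5 Schwann-cell markers (30.6 to 42.2 CPM in laminae III–VI and 37.8 to 560 CPM in laminae I–II). Of the other astrocyte markers, Slc1a2 was higher in laminae III–VI (log2 difference 0.23, edgeR adjusted p = 4.63e-06) and Gja1 did not pass. The part of cell composition in the layer difference was not tested. In these bulk samples, more cells of a type and more RNA per cell cannot be told apart.

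The second comparison asked whether CNO changed the genes in laminae III–VI. No gene of the 97 tested passed (edgeR adjusted p under 0.05), where 0.137% of 13117 genes did. The 13 mitochondrial-encoded genes all had values above 0, as had 48.6% of all genes, with a median of 0.09 on the log2 scale and a range of 0.02 to 0.17, against a median of -0.01 over all genes tested. The nuclear genes had a median of -0.03, with 29 of 84 above 0, and without Saline replicate 3 that median was 0.01. At an unadjusted p under 0.05 there were 2 mitochondrial-encoded genes and 6 nuclear genes above 0 (5.11% of all genes) and 1 nuclear gene below 0 (4.13% of all genes), and DESeq2 called none of the members.

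The mitochondrial-encoded median moved with single CNO libraries. These genes lie on the same genome and are not separate observations to set against the share of all genes. Without CNO replicate 2 it was 0.03 and without CNO replicate 3 it was 0.15, and with library totals in place of TMM factors it was 0.05, on which scale Mt-nd2, Mt-nd4l and Mt-nd6 fell just below 0. Mt-co1 had the smallest p of the 13 in this layer (log2 difference 0.17, SE 0.07, edgeR adjusted p = 0.455), and its CNO libraries lay above its Saline libraries without overlap. Over all genes 7.72% were higher without overlap, and Mt-co1 and Mt-nd1 were the mitochondrial-encoded genes among them. Of the 84 nuclear genes tested, 4 were higher and 5 were lower without overlap. The share of all genes lower without overlap is not given here. The neurofilaments Nefl, Nefm and Nefh were higher with CNO in the same libraries, and the summed neuronal markers were 24040 to 27680 CPM with CNO and 18630 to 21350 CPM with Saline. Their part in the values of the mitochondrial-encoded genes was not tested.

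Among nuclear genes in laminae III–VI, Atp5i, subunit e of the ATP synthase, had the smallest p. It was at 71.7, 86.3 and 81.6 CPM in the CNO libraries and 57.7, 60.8 and 74.0 CPM in the Saline libraries, which overlapped (log2 difference 0.31, SE 0.09, edgeR adjusted p = 0.329). Without Saline replicate 3 the difference was 0.43 and passed (edgeR adjusted p = 0.0272). Ndufb7 was at 97.3, 112 and 113 CPM with CNO and 88.2, 90.8 and 98.4 CPM with Saline (0.21, edgeR adjusted p = 0.398). Cox6c, a complex IV subunit, was the gene of smallest p below 0, at 343, 299.5 and 317 CPM with CNO and 385, 323 and 373 CPM with Saline (-0.18, edgeR adjusted p = 0.448). The groups of each of these genes overlapped. Cox4i2 had the largest value, 0.77, at 3.45, 4.17 and 2.48 CPM with CNO and 1.46, 1.88 and 2.51 CPM with Saline, a level at which few reads stand behind each value.

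In laminae I–II no member passed with CNO either, where 0.142% of 13344 genes did. The values lay mostly below 0: 12 of 13 mitochondrial-encoded genes (median -0.09) and 68 of 84 nuclear genes (median -0.10), against 51.0% of all genes tested (median -0.003). At an unadjusted p under 0.05, 1 mitochondrial-encoded gene and 10 nuclear genes were below 0 (3.6% of all genes) and none was above, and DESeq2 called none of the members. In 10 nuclear genes the CNO libraries lay below the Saline libraries without overlap, as in 5.11% of all genes.

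The genes of smallest p in laminae I–II were Ndufc2, Cox7a2, Cox6b1_1 and Cox4i1, subunits of complexes I and IV. Ndufc2 was at 30.1, 27.3 and 27.6 CPM with CNO and 30.2, 42.7 and 35.2 CPM with Saline (log2 difference -0.36, SE 0.12, edgeR adjusted p = 0.477). Cox7a2 was at 62.3, 50.7 and 66.2 CPM with CNO and 71.3, 71.9 and 70.8 CPM with Saline (-0.26, SE 0.09, edgeR adjusted p = 0.499). The CNO libraries lay below the Saline libraries for both genes, although the highest CNO value of Ndufc2, 30.07 CPM, was close to its lowest Saline value, 30.21 CPM. Cox4i1 was at 250.1, 237 and 254 CPM with CNO and 258, 278 and 286 CPM with Saline (-0.16, edgeR adjusted p = 0.595). All 15 nuclear subunits of complex V had values below 0, with a median of -0.10 (range -0.24 to -0.04).

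The mitochondrial-encoded values in laminae I–II depended on single libraries, so here too the genes are not separate observations. Their median was -0.04 without CNO replicate 3 and -0.13 without CNO replicate 1. Without Saline replicate 2 their median was 0.01, and without Saline replicate 1 it was -0.17, with Mt-atp8 and Mt-nd3 passing (log2 differences -0.32 and -0.41, edgeR adjusted p = 0.0305 and 0.0175). Mt-nd3, a complex I subunit, was at 274, 275 and 254 CPM with CNO and 214, 371 and 334 CPM with Saline, so the CNO libraries lay between the Saline ones. The same Saline libraries carried the Schwann-cell markers described above, 4 of 5 of which were lower with CNO, and the summed markers of fibroblasts and meninges were 57.8 to 70.8 CPM with CNO and 71.2 to 380.1 CPM with Saline. The astrocyte markers lay mostly the other way, with 5 of 6 above 0, none passing, and a summed level of 4063 to 4699 CPM with CNO and 3696 to 4195 CPM with Saline. The part of these cells in the values was not tested.

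**Figure D5:**
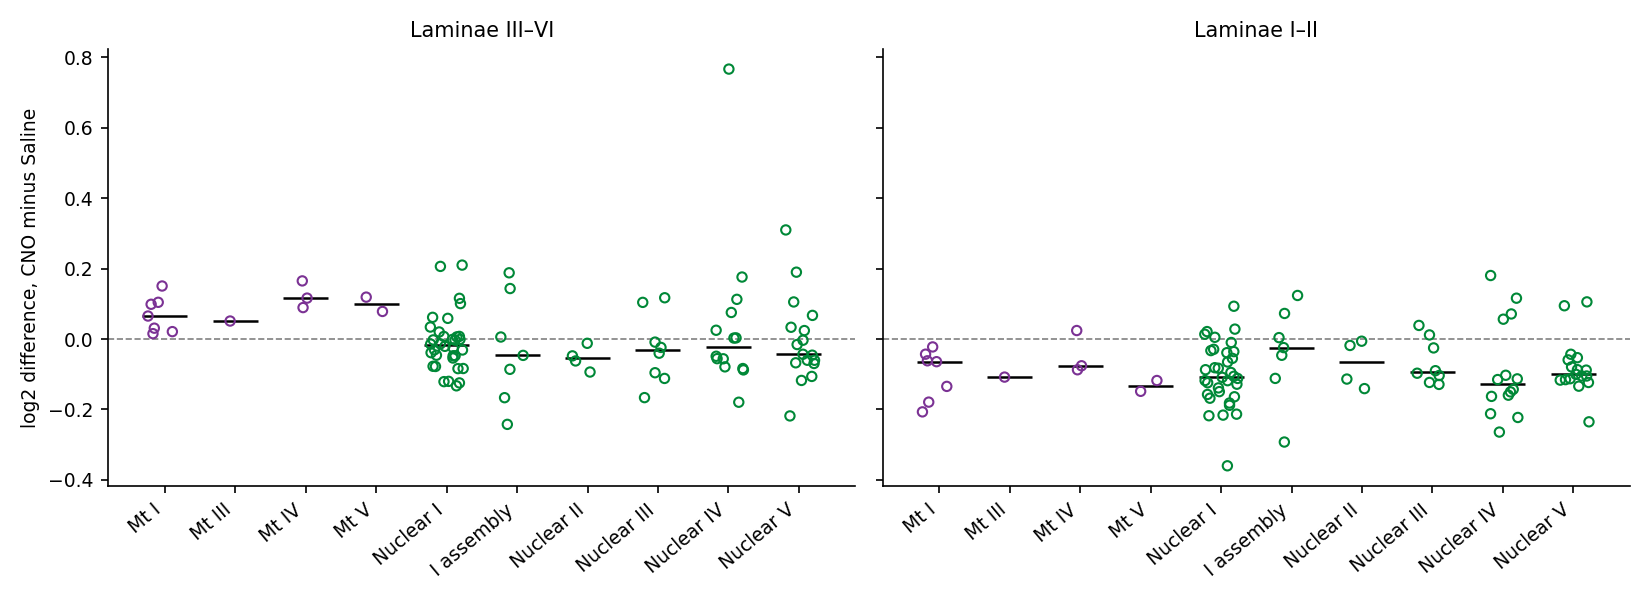
Log2 difference between CNO and Saline (vertical axis, CNO minus Saline) for each gene tested in laminae III–VI (left) and laminae I–II (right), by genome and complex as named on the horizontal axis (purple mitochondrial, green nuclear; nuclear V includes Atp5s and Atp5sl). All points are open because none had an edgeR adjusted p under 0.05, and bars are medians. The mitochondrial-encoded genes all lie above 0 in laminae III–VI, and 12 of 13 lie below 0 in laminae I–II.

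The last comparison asked whether the CNO difference itself differed between the layers. Of 98 members tested, 1 passed, Ndufb7, where 0.429% of 13745 genes did. Its CNO difference in laminae III–VI exceeded that in laminae I–II by 0.41 on the log2 scale (SE 0.09, edgeR adjusted p = 0.0468). Its CNO difference was 0.21 in laminae III–VI and -0.21 in laminae I–II (48.5, 49.3 and 54.4 CPM with CNO and 51.9, 62.5 and 60.7 CPM with Saline), and neither passed within its own layer. The call was lost in 8 of 13 alternatives, among them DESeq2 (adjusted p = 0.276), no rat block (edgeR adjusted p = 0.594) and 5 of the 6 fits that left out a rat (edgeR adjusted p = 0.0549 to 0.275).

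The values of all 13 mitochondrial-encoded genes in this comparison were above 0, as were 48.8% over all genes (median 0.16, range 0.04 to 0.24), 8 of them at an unadjusted p under 0.05, against a median of -0.01 and 4.5% higher at that p over all genes. None passed after adjustment in the main edgeR fit or with DESeq2. With no low-count filter Mt-atp6, Mt-atp8, Mt-co2 and Mt-nd1 passed (edgeR adjusted p = 0.0175, 0.00336, 0.0312 and 0.00548). The median of the 13 was 0.25 without Saline rat 1 and 0.08 without Saline rat 2. The 13 genes lie on the same genome and their median moved with single rats. They are therefore not 13 separate observations, and the share over all genes cannot show how unusual their count is. Markers of other cells moved in the same comparison: 4 of 8 neuronal, 3 of 5 Schwann-cell and 3 of 4 fibroblast and meningeal markers passed above 0, with medians of 0.24, 1.86 and 1.43 on the log2 scale, and all 6 astrocyte markers were below 0, of which Slc1a3 passed (-0.39, edgeR adjusted p = 0.0107). Their part in the values of the members was not tested. Mt-nd1 came nearest (0.21, SE 0.06, edgeR adjusted p = 0.167). Without Saline rat 1, Mt-atp6, Mt-atp8, Mt-co2 and Mt-nd3 passed (0.26 to 0.42), and without CNO rat 2 or Saline rat 2 the value of Mt-nd4l fell below 0. The nuclear genes had a median of 0.06, with 67 of 85 above 0. Atp5i followed Ndufb7 (0.41, edgeR adjusted p = 0.107).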

How the data were processed

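The authors sequenced stranded, ribosome-depleted libraries of laser-cut laminae, mapped reads to rn6 in CLC Genomics Workbench and deposited raw read counts for 32623 genes in 1 table per layer. Whether counting used strand or introns is not given in the sources used here. The tables' fold changes and p-values hold the authors' own comparisons and were not used. Counts were tested with edgeR 4.0.16 in R 4.3.3 (quasi-likelihood; filterByExpr with a minimum count of 10 and a minimum total of 15; TMM), with p adjusted by Benjamini-Hochberg over all genes tested in each fit, and checked on simulated data. CNO was compared with Saline within each layer from its 6 libraries. The layer and interaction fits used all 12 libraries with the rat as a block. The methods give 3 rats for each layer without saying which library came from which, or whether a library pooled rats. Libraries of 1 treatment and number were taken as 1 rat because their deviations correlated in 6 of 6 pairs (0.112 to 0.181). CNO and Saline libraries of 1 number, which are different rats, correlated as well, at 0.0211 to 0.123. The correlation therefore cannot show that 2 libraries are of 1 rat, and the rat block remains an assumption. Replicates differed by more than sampling noise, and p-values measure the spread between these libraries. Members not tested in any fit numbered 12, all nuclear and low. Named genes were all mitochondrial-encoded members, nuclear members of smallest p in each direction per comparison, the highest in each complex, tissue isoforms and, per list, those of smallest p. Tfam, Polrmt, Ldha, Nrf1, Gabpa, Yy1, Sirt1, Prkaa2, Esrra, Hk2, Slc16a7, Ucp2, Cyc1, the pyruvate dehydrogenase kinases, the single lower genes of lists, further subunits and the genes plotted were chosen after their values were seen. Members and lists were chosen with earlier results of these data known. Alternatives were RLE factors, library totals, scaling without mitochondrial-encoded genes, other filters, DESeq2 1.42.0, the block, 1 fit of all libraries, each replicate left out and 1 treatment alone.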

Additional observations from a re-analysis of the deposited data

Results flagged for a closer look

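Ndufb7, an accessory subunit of complex I, was the member whose CNO difference differed between the layers by the test of the difference itself: the value in laminae III–VI minus that in laminae I–II was 0.412 on the log2 scale (edgeR adjusted p = 0.0468). The adjusted p over the alternatives ran from 0.0131 to 0.594. It missed 0.05 with library totals only (0.0649), with DESeq2 (0.276), without the rat block (0.594), and without each of Saline rat 2 (0.168), Saline rat 3 (0.0811), CNO rat 1 (0.0549), CNO rat 2 (0.275) and CNO rat 3 (0.192). The neurofilament Nefm (0.62, edgeR adjusted p = 0.000133), the Schwann-cell markers Pmp22 (1.69), Prx (1.86) and Pmp2 (2.60) and the fibroblast and meningeal markers Dcn (1.23), Col1a1 (1.21) and Lum (1.87) passed in the same direction, the astrocyte marker Slc1a3 passed in the other (-0.39), and their part in the value of Ndufb7 was not tested.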

How the results depend on the processing

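The layer test called 77 nuclear and 13 mitochondrial-encoded genes, all higher in laminae III–VI, in every setting except with library totals only (73 and 12), without CNO rat 2 (78 and 13) and, chosen after seeing the data, in the Saline rats alone (75 and 13) and the CNO rats alone (76 and 13). The values of members that never passed there changed sign with library totals: Ndufa7 (-0.031), Ndufv3_2 (-0.096), Ndufaf3 (-0.057), Ndufa1 (-0.085) and Ndufaf6 (-0.061). Cox4i2 was 0.15 in the CNO rats alone, chosen after seeing the data, and Ndufa4l2 ran from -0.31 to 0.12 with each rat left out. The causes were not tested.

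With CNO in laminae III–VI, 18 genes passed in all; this was 112 with no low-count filter, 194 with the replicate number as a block, 0 in 1 fit of all 12 libraries and 0 to 93 with each replicate left out. Nuclear members passing numbered 1 with no filter (Atp5i, edgeR adjusted p = 0.0453), 2 with the block (Atp5i, 0.0196, and Cox6c, 0.0451) and 0 to 1 with each replicate left out. With library totals Mt-nd2 was -0.016, Mt-nd4l -0.022 and Mt-nd6 -0.0070; with each replicate left out Mt-nd2 ran from -0.042 to 0.063, Mt-nd3 from -0.030 to 0.13, Mt-nd4l from -0.058 to 0.076 and Mt-nd6 from -0.0003 to 0.086.

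In laminae I–II, 19 genes passed in all; this was 131 with no filter, 9 with DESeq2, 78 with the replicate block and 3 to 29 with each replicate left out, when mitochondrial-encoded members passing numbered 0 to 2. The ranges were -0.23 to 0.044 for Mt-atp6, -0.055 to 0.066 for Mt-co1, -0.15 to 0.0086 for Mt-co2, -0.17 to 0.030 for Mt-cox3, -0.13 to 0.0006 for Mt-nd1, -0.24 to 0.0031 for Mt-nd2, -0.080 to 0.042 for Mt-nd4, -0.23 to 0.13 for Mt-nd4l, -0.090 to 0.011 for Mt-nd5 and -0.019 to 0.18 for Ndufa1. CNO and Saline libraries of 1 number had deviations correlated at 0.063 to 0.123 in laminae III–VI and 0.0211 to 0.0427 in laminae I–II, and each of the 12 libraries correlated best with its own number. This is a hint of pairing from the data and not from the design, and the number was not used as a pairing there because 5 of the 6 correlations were under 0.1.

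For the difference between layers, 59 genes passed; this was 164 with no filter, 28 with DESeq2, 2 with no replicate block and 14 to 71 with each rat left out. Mitochondrial-encoded members numbered 4 with no filter and 0 to 4 with a rat left out. Nuclear members numbered 2 with no filter, 0 with library totals, DESeq2 or no block, and 0 to 2 with a rat left out. Mt-nd4l ran from -0.079 to 0.18. With 3 libraries a group, differences of the size seen with CNO in most members were within the spread.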

Other observations

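The tables hold rows for 22 mitochondrial tRNAs and 2 mitochondrial rRNAs, each listed at 0 counts in all 12 libraries, so the mitochondrial share covers the 13 protein-coding genes alone. The row of Cycs, the cytochrome c gene, is also listed at 0 in every library. With CNO no gene of the 8 pathway lists passed in either layer (edgeR adjusted p under 0.05).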
